A study of Mus musculus with 9 samples.

Results

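The smooth muscle and myofibroblast contractile genes studied were Acta2, Tagln, Cnn1, Myh11, Myl9, Tpm1, Tpm2, Cald1, Actg2 and Lmod1. They were chosen by name for their place in the contractile apparatus, with earlier results of these data known. All 10 were found among the 54532 genes of the deposited table. Their RNA was measured in cultured mouse cardiosphere-derived cells, which are stromal cells that grow out of heart explants. The 9 RNA-seq libraries formed 3 groups of 3. Primary cells (pECDCs) came from ventricle explants of C57BL/6 mice, and the methods of the study give 6-week-old animals, the epicardium as the tissue and passage 3, whereas the sample titles carry P0. Immortalized cells (iECDCs) were primary cells given human telomerase (hTERT) by a lentivirus under a CMV promoter and selected with puromycin, and were taken at passage 30, without treatment. SB431542-treated cells were, by the labels, iECDCs at passage 30 exposed for 3 days to SB431542, a small molecule that blocks signalling by the type I receptor for TGF-β. The methods instead name an SB431542-treated epithelial clone derived from pECDCs, so the identity of these cells was taken from the labels and remains in doubt. The number of mice per group was not stated, and immortalization, passage number and selection cannot be told apart between iECDCs and pECDCs. The labels give 3 libraries per group and the methods 2 biological replicates. No label says that the libraries came from separate cultures, so p-values measure the spread between these libraries, which may be technical.

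Contractile cells pull by sliding myosin along actin filaments, and smooth muscle uses its own versions of these proteins. Acta2 encodes smooth muscle α-actin, which activated fibroblasts (myofibroblasts) also make, while Myh11, the smooth muscle myosin heavy chain, is largely restricted to smooth muscle. Most of these genes are switched on by serum response factor (SRF), which binds the CArG box together with cofactors of the myocardin family, and TGF-β is a well known inducer of them.

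CArG boxes were looked for in the promoter windows of RefSeq (build GRCm38.p6), which run from 250 bases before to 50 bases after a gene start. Windows were matched for 7 of the 10 genes, in 8 windows, and Tagln, Myh11 and Actg2 had no entry. The strict CArG box was in 1.629% of all 32851 windows and, of these genes, in Myl9. With at most 1 G or C in the core, a definition added after the strict search, it was in 9.984% of all windows and in Acta2 and Myl9. The 4 matches shown are all those found under the looser definition in the windows of these genes, with the CArG box in capitals. Coordinates are those of the 30 bases shown, and the distance upstream is that of the first base of the CArG box.
Acta2, chr19:34255438-34255467, minus strand, starting 84 bases upstream: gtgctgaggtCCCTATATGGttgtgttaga
Acta2, chr19:34255388-34255417, minus strand, starting 34 bases upstream: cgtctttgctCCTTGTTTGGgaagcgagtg
Myl9, chr2:156775293-156775322, plus strand, starting 161 bases upstream: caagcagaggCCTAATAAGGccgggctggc
Myl9, chr2:156775355-156775384, plus strand, starting 99 bases upstream: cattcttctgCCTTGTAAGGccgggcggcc
The first Myl9 match was the strict box, and the other 3 carried 1 G or C in the core. On both strands, the SMAD motif CAGAC was in 49.594% of all windows and in those of Acta2, Cald1 and Cnn1. The M-CAT motif CATTCC was in 14.663% of all windows and in those of Acta2, Cald1, Lmod1 and Tpm1. Matches are descriptions of sequence and not evidence of binding.

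Libraries held between 16568306 and 23951392 counts. The 10 genes took 0.475% to 0.488% of all counts in pECDCs. One iECDC and one treated library stood apart from the others of their group. In iECDCs their share was 0.476% and 0.490% in replicates 1 and 2 but 0.681% in replicate 3, and in treated cells it was 0.199% and 0.205% in replicates 1 and 3 but 0.315% in replicate 2. Replicate 3 of the iECDCs was the highest of its group for 9 of the 10 genes, all but Cald1, with a median ratio of 2.15 to the mean of the other libraries. Replicate 2 of the treated cells was the highest for 9 of the 10, all but Myh11, with a median ratio of 2.32. Across all genes, chi-square per degree of freedom between replicates was 2.70 to 4.23 in pECDCs, 4.61 between iECDC replicates 1 and 2 and 24.9 or more with replicate 3. It was 3.79 between treated replicates 1 and 3 and 70.3 or more with replicate 2. On the first principal component (65.0% of the variance) treated replicate 2 lay at 19.5, against 59.4 and 57.8 for the other treated libraries and -28.8 to -26.8 for iECDCs. Counts of calls and the fold changes of the 10 genes are therefore given below with and without these libraries, a choice made after seeing the data, and the reason they stood apart was not tested.

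**Figure D1:**
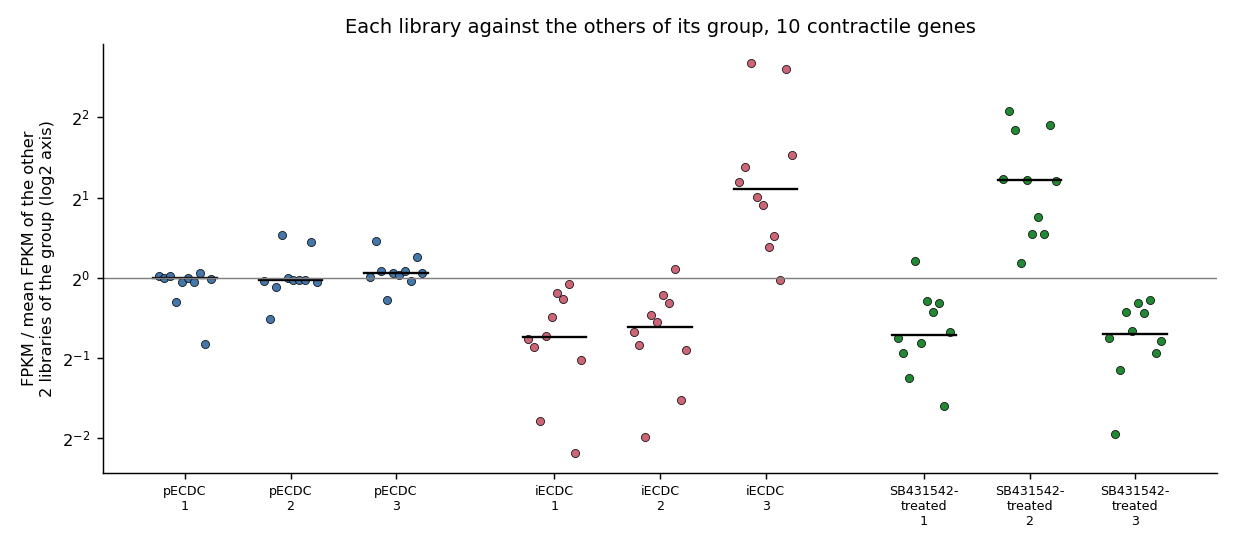
Ratio of each library's FPKM to the mean FPKM of the other libraries of its group (log2 axis), one point per contractile gene and a bar for the median, with replicates 1 to 3 of each group along the x axis. Points of iECDC replicate 3 and SB431542-treated replicate 2 lie mostly above the line of equal level, with medians of 2.15 and 2.32, and the pECDC medians lie near it.

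Cell identity was checked on lists of marker genes. Fibroblast markers were abundant, with summed FPKM (fragments scaled to gene length and library depth) of 1851 to 1899 in pECDCs, 1641 to 1856 in iECDCs and 980 to 1688 in treated cells. The lowest of these, 980, was treated replicate 2. The members of this list moved in different directions. In treated cells against iECDCs Fbln2 was lower (means of 758 and 203 FPKM in iECDCs and treated cells), while Col3a1, Pdgfra and Dcn were higher (Dcn 0.470 and 13.2), and the median log2 fold change of the 7 tested was 0.44, and 0.76 without the libraries that stood apart. Smooth muscle markers, 4 of whose 7 genes are among the 10, summed to 24.2 to 24.6 FPKM in pECDCs, 22.3 to 46.6 in iECDCs and 12.3 to 19.4 in treated cells. Smtn was the highest of them, with means of 14.5, 17.3 and 10.3, and Myocd, the gene for myocardin, was at 0.114 or less in every library. Cardiomyocyte markers summed to 2.31 FPKM or less, skeletal muscle markers to 0.831 or less, endothelial markers to 0.165 or less and epithelial markers to 0.0530 or less. All 5 epithelial markers had at most 3 counts in every treated library. Pericyte markers summed to 24.4 to 28.7 FPKM in iECDCs and to 73.8, 37.9 and 65.4 in treated replicates 1, 2 and 3, with Pdgfrb the highest. Of the 3 pericyte markers tested, Pdgfrb and Notch3 were higher in treated cells than in iECDCs. The other, Mcam, did not pass (means of 1.53 and 1.18 FPKM in iECDCs and treated cells). Leaving out the libraries that stood apart, 3 of 4 tested were higher and 0 lower. Against pECDCs, Pdgfrb and Notch3 were higher in treated cells, and Mcam and Cspg4 were lower. Epicardial markers summed to 45.2 to 46.7 FPKM in pECDCs, 51.7 to 60.2 in iECDCs and 66.1 to 68.7 in treated cells. Of 6 tested, Tcf21, Upk3b and Wt1 were higher in treated cells than in iECDCs, at means of 1.43, 1.28 and 0.284 FPKM in treated cells, and Aldh1a2 was lower. Haematopoietic markers summed to 7.87 to 15.8 FPKM, with Cd14 and Csf1r the highest. Adgre1 was listed at 0 in every group, Ptprc had at most 4 counts in any library and Itgam at most 1. Of 3 tested, Cd14 was higher in treated cells than in iECDCs and 0 were lower. Against pECDCs Cd14 was higher in treated cells and Cd68 lower. In bulk RNA, fewer cells of a type and less RNA per cell cannot be told apart. In iECDCs against pECDCs, 3 of 4 tested pericyte markers were lower (Pdgfrb, Notch3 and Cspg4) and 0 higher. Of 8 tested fibroblast markers 4 were lower (Col1a1, Col3a1, Pdgfra and Dcn) and 0 higher. Of 5 tested epicardial markers Krt19 was higher, and Aldh1a2 and Upk1b were lower. Of all genes, 9.21% were lower and 7.21% higher there. Without iECDC replicate 3, 4 of 4 pericyte markers were lower, and 5 of 8 fibroblast markers lower and 1 higher. Some fibroblast, pericyte, epicardial and haematopoietic markers thus differed between the same groups as the contractile genes below. Their part in those results was not tested.

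Levels spanned a wide range between the genes. In pECDCs the mean FPKM was 728 for Acta2, 165 for Tpm1, 158 for Cald1, 98.7 for Tpm2 and 94.4 for Myl9, and then 5.22 for Cnn1, 4.10 for Lmod1, 1.85 for Tagln, 0.318 for Actg2 and 0.174 for Myh11. Actg2 was above Myh11 by group mean in all 3 groups but below it in iECDC replicates 1 and 2 and treated replicates 1 and 3. In pECDCs, libraries of neighbours in the order of means overlapped only for Tpm2 with Myl9 and for Actg2 with Myh11. In iECDCs, where replicate 3 widened the spread, they overlapped for Cald1 with Myl9, Myl9 with Tpm2 and every pair from Cnn1 down. In treated cells Acta2 overlapped with Tpm1, Tpm2 with Cald1, and every pair from Lmod1 down. The abundant genes include the actin and tropomyosins of stress fibres, whereas the heavy chain Myh11 and the enteric actin Actg2 were barely detected.

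**Figure D2:**
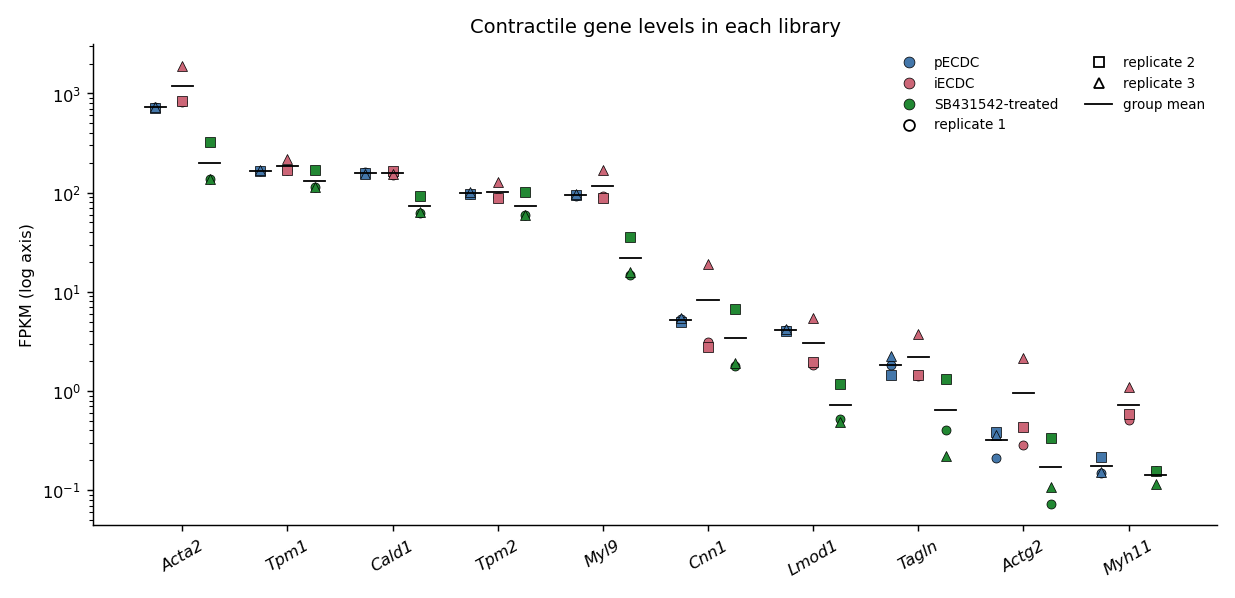
FPKM of the 10 contractile genes on a log axis, with a symbol for each replicate, a colour for each group and a bar at the group mean. Acta2 has the highest mean in each group, Actg2 and Myh11 lie at the bottom in changing order, and SB431542-treated replicates 1 and 3 lie below the iECDC libraries for each gene shown.

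The question of the first comparison was which contractile genes differed between immortalized and primary cells. One of the 10 was higher in iECDCs (Myh11), none was lower and 9 did not pass, while 7.21% of all 13752 tested genes were higher and 9.21% lower. At an unadjusted p under 0.05, 2 of the 10 were higher (Acta2 and Myh11) and 0 lower, against 31.5% of all genes in either direction, and DESeq2 and limma also gave 0 lower. The median log2 fold change of the 10 was 0.25, against 0.00 for all genes tested, but without iECDC replicate 3 it was -0.04, so that library set its sign. On counts divided by the library total, libraries of the groups did not overlap for 13.1% of all genes in the higher direction and 26.4% in the lower. Calls were made with the quasi-likelihood test of edgeR, and p-values were adjusted by Benjamini-Hochberg across the whole table of tested genes.

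Myh11 was at 0.150, 0.218 and 0.152 FPKM in pECDCs and at 0.508, 0.584 and 1.10 in iECDCs. These levels rested on 27 to 33 and 73 to 128 counts, and the groups did not overlap. Its log2 fold change was 2.05 (SE 0.33, adjusted p = 0.00339, edgeR), and 1.65 without iECDC replicate 3 (adjusted p = 4.98e-05).

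Acta2 was at 737, 714 and 733 FPKM in pECDCs and at 812, 848 and 1898 in iECDCs. Every iECDC library lay above every pECDC library, and replicate 3 lay far above the others. The log2 fold change was 0.69 (SE 0.28, 95% interval -0.09 to 1.47, adjusted p = 0.129, edgeR) and did not pass. This and the other 95% intervals use 4 degrees of freedom and are not those of the edgeR test. The interval for Acta2 spans 0 although the unadjusted p of that test was under 0.05. Without replicate 3 the log2 fold change was 0.18 (SE 0.03, adjusted p = 0.00100, edgeR) and passed.

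For Cnn1, which encodes calponin, an actin-binding protein that inhibits myosin ATPase, the FPKM values were 5.26, 4.96 and 5.43 in pECDCs and 3.15, 2.80 and 19.0 in iECDCs. The first 2 iECDC libraries lay below all primary ones and the third above them, so the log2 fold change was 0.63 (adjusted p = 0.522) with all libraries and -0.81 (adjusted p = 3.13e-05, edgeR) without replicate 3. Lmod1, leiomodin, an actin filament nucleator, showed the same split: 4.08, 4.01 and 4.21 FPKM in pECDCs against 1.82, 1.94 and 5.44 in iECDCs. Its log2 fold change was -0.45 (adjusted p = 0.409), and -1.14 without replicate 3 (adjusted p = 5.90e-07, edgeR).

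The remaining genes did not pass with all libraries. Myl9, the regulatory light chain, was at 92.2, 94.1 and 96.8 FPKM in pECDCs and at 92.4, 89.3 and 170 in iECDCs, with a log2 fold change of 0.30 (SE 0.21) that was -0.06 without replicate 3. Cald1, caldesmon, was at 163, 156 and 155 against 151, 165 and 155, the one gene in which iECDC replicate 3 was not the highest, with a log2 fold change of -0.02 (95% interval -0.21 to 0.16), and -0.01 without replicate 3. The tropomyosins Tpm1 and Tpm2, which lie along the actin filament, had log2 fold changes of 0.16 (SE 0.10) and 0.04 (SE 0.13). Without replicate 3 these were 0.03 and -0.15, and Tpm2 then passed (adjusted p = 0.0107, edgeR). Tagln, transgelin, had 0.20 (SE 0.36), and Actg2 1.52 (SE 0.73, 8 to 13 counts in pECDCs and 9, 11 and 52 in iECDCs). Without replicate 3 Tagln turned to -0.39 and Actg2 went to 0.16, and neither passed. In that setting 2 of the 10 were higher (Acta2 and Myh11) and 3 lower (Cnn1, Tpm2 and Lmod1), while 15.5% of all genes were higher and 16.2% lower (31.7% in either direction).

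The second comparison asked which of these genes differed between treated and untreated iECDCs. Of the 9 tested, 5 were lower in treated cells (Acta2, Myl9, Cald1, Lmod1 and Myh11), none was higher and 4 did not pass, while 14.0% of all 13559 tested genes were lower and 16.0% higher. At an unadjusted p under 0.05, 7 were lower and 0 higher, against 43.4% of all genes in either direction, and DESeq2 and limma also gave 0 higher. The median log2 fold change was -1.71, against 0.00 for all genes, and -1.88 without the libraries that stood apart. Actg2 was not tested because of its low counts. Leaving out iECDC replicate 3 and treated replicate 2, 9 of the 9 tested genes were lower, while 31.9% of all genes were lower, 32.6% higher and 64.5% changed in either direction. Libraries of the groups did not overlap for 17.6% of all genes in the lower direction and 28.4% in the higher. These shares were taken on counts divided by the library total, whereas the overlaps of single genes are described on FPKM.

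**Figure D3:**
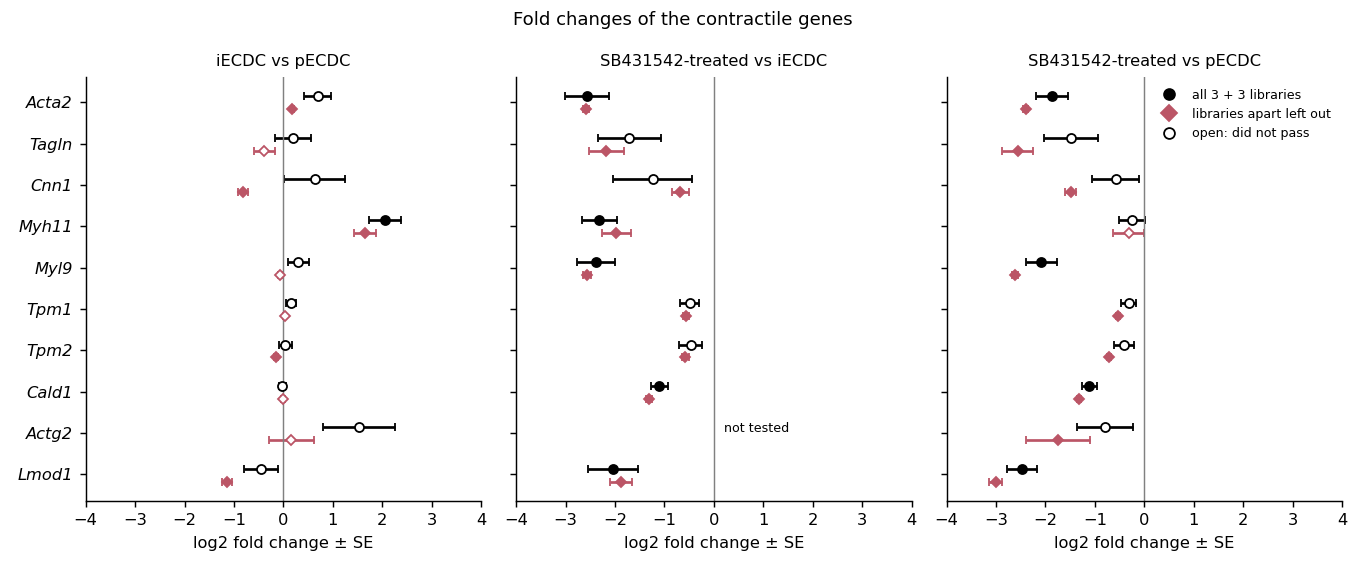
Log2 fold change with its standard error for each contractile gene in the 3 comparisons, from edgeR. Black circles use all libraries and red diamonds leave out iECDC replicate 3, SB431542-treated replicate 2 or both, as the comparison contains them, and filled symbols passed an adjusted p of 0.05. Acta2, Myl9, Cald1 and Lmod1 are filled and negative in both comparisons with treated cells.

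Acta2 was at 812, 848 and 1898 FPKM in iECDCs and at 137, 322 and 137 in treated cells. The groups did not overlap, and treated replicate 2 was the highest of its group. The log2 fold change was -2.56 (SE 0.45, adjusted p = 0.00581, edgeR), a 5.92-fold lower level, and -2.59 without the libraries that stood apart.

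Myl9 followed with 92.4, 89.3 and 170 FPKM in iECDCs and 14.7, 35.6 and 15.9 in treated cells. All treated libraries lay below all iECDC libraries. Its level was 5.25-fold lower (log2 fold change -2.39, SE 0.39, adjusted p = 0.00424, edgeR), and the log2 fold change was -2.56 without the libraries that stood apart.

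Cald1 was at 151, 165 and 155 FPKM and fell to 62.5, 91.6 and 63.4. This gene had the tightest iECDC libraries and again no overlap. The level was 2.15-fold lower (log2 fold change -1.10, SE 0.17, adjusted p = 0.00380, edgeR), and the log2 fold change was -1.32 without the libraries that stood apart.

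Lmod1 was at 1.82, 1.94 and 5.44 FPKM in iECDCs and at 0.520, 1.17 and 0.491 in treated cells, on 35 to 97 counts. The groups did not overlap, although treated replicate 2 came near the lowest iECDC library. Its log2 fold change was -2.04 (SE 0.51, adjusted p = 0.0199, edgeR), and the call was lost without treated replicate 1 (adjusted p = 0.0746) or without replicate 3 (adjusted p = 0.0662). It was -1.88 without the libraries that stood apart. Myh11 was at 0.158, 0.156 and 0.117 FPKM in treated cells, on 16 to 25 counts, below all iECDC libraries. Its log2 fold change was -2.32 (SE 0.35, adjusted p = 0.00340, edgeR), and -1.98 without the libraries that stood apart.

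The other 4 genes did not pass with all libraries. Tpm1 was at 170, 169 and 220 FPKM in iECDCs and at 115, 167 and 114 in treated cells. In FPKM treated replicate 2 lay just under the lowest iECDC library, but not on counts divided by the library total. The log2 fold change was -0.49 (adjusted p = 0.0840, edgeR). Tpm2 was at 90.4, 88.3 and 129 against 59.8, 101 and 59.4, so the groups overlapped, with a log2 fold change of -0.47 (adjusted p = 0.163). Tagln had 1.42, 1.44 and 3.73 against 0.402, 1.32 and 0.223 FPKM (log2 fold change -1.71, adjusted p = 0.0725), and Cnn1 3.15, 2.80 and 19.0 against 1.79, 6.64 and 1.90 (log2 fold change -1.24, adjusted p = 0.265). Without the libraries that stood apart these 4 had log2 fold changes of -0.56, -0.58, -2.18 and -0.68, and each passed. Actg2 had 9, 11 and 52 counts in iECDCs and 2, 11 and 3 in treated cells, of which 2 libraries were at or under a floor of 3 counts.

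Treated cells were also set against pECDCs, a comparison that shares its libraries with the other comparisons and adds no independent evidence. Here 4 of the 10 genes were lower (Acta2, Myl9, Cald1 and Lmod1), none was higher and 6 did not pass, while 17.0% of all 14015 tested genes were lower and 17.9% higher. At an unadjusted p under 0.05, 5 were lower and 0 higher, against 46.2% of all genes in either direction, and again DESeq2 and limma gave 0 higher. The log2 fold changes were -1.87 for Acta2 (adjusted p = 0.00608), -2.08 for Myl9 (adjusted p = 0.00357), -1.12 for Cald1 (adjusted p = 0.00245) and -2.47 for Lmod1 (adjusted p = 0.00168, edgeR). Lmod1 was at 4.01 to 4.21 FPKM in pECDCs, above each treated library. On counts divided by the library total, the groups did not overlap for 26.3% of all genes in the lower direction and 25.3% in the higher. Myh11 had a log2 fold change of -0.25 (SE 0.26, 95% interval -0.97 to 0.47). Without treated replicate 2 these log2 fold changes were -2.40 for Acta2, -2.62 for Myl9, -1.32 for Cald1, -3.01 for Lmod1 and -0.32 for Myh11, and the median of the 10 was -1.62 in place of -0.95. Without treated replicate 2, 9 of the 10 were lower, all but Myh11, while 32.3% of all genes were lower, 31.7% higher and 64.1% changed in either direction.

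Homologues of the contractile genes were compared next, because reads of similar genes could be split between them. Of the 20 listed, 12 had a mean of at least 1 FPKM in each group. None of the 100-base windows of the transcripts of the 9 genes with listed homologues was shared with a homologue, for example 0 of 2096 for Acta2 and 0 of 1607 for Actg2. Only exact matches between annotated protein-coding transcripts of the listed genes were counted. Reads split through mismatches or other gene copies were therefore not tested. Of 20 homologues, 7 of 14 tested were lower in treated cells than in iECDCs and 1 was higher (Tmod1), with a median log2 fold change of -0.52. Tagln2 fell by 0.76 on the log2 scale (adjusted p = 0.0357), Actg1 by 0.71 (adjusted p = 0.0214), Actb by 0.63 (adjusted p = 0.0216) and Cnn2 by 0.57 (adjusted p = 0.0416, edgeR). Between iECDCs and pECDCs 3 of 13 tested were higher (Actb, Myh9 and Tagln2) and none lower, and in treated cells against pECDCs 3 of 14 were lower and 1 higher. Leaving out the libraries that stood apart, 10 of 14 were lower and 2 higher in treated cells than in iECDCs. In that setting 2 of 14 were lower and 5 higher in iECDCs than in pECDCs. Treated cells against pECDCs then had 11 of 14 lower and 2 higher. The shares of all genes in that setting were 31.9% lower and 32.6% higher, 16.2% and 15.5%, and 32.3% and 31.7%, in the same order of comparisons. With all libraries they were 14.0% and 16.0%, 9.21% and 7.21%, and 17.0% and 17.9%.

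Tagln, usually an abundant smooth muscle and fibroblast transcript, was low. It was at 3.73 FPKM or less in every library, while Tagln2 was at 269 to 665. The antisense gene Gm48529 shares 1241 of the 1988 exonic bases of Tagln (62.4%) and Pcsk7 shares 108. Gm48529 was at 0.0450 to 0.540 FPKM and Pcsk7 at 6.80 to 7.84. Without strand information reads of a gene and its antisense partner cannot be told apart, and the part of counting in the low level of Tagln was not tested. The level of Tagln is therefore uncertain.

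**Figure D4:**
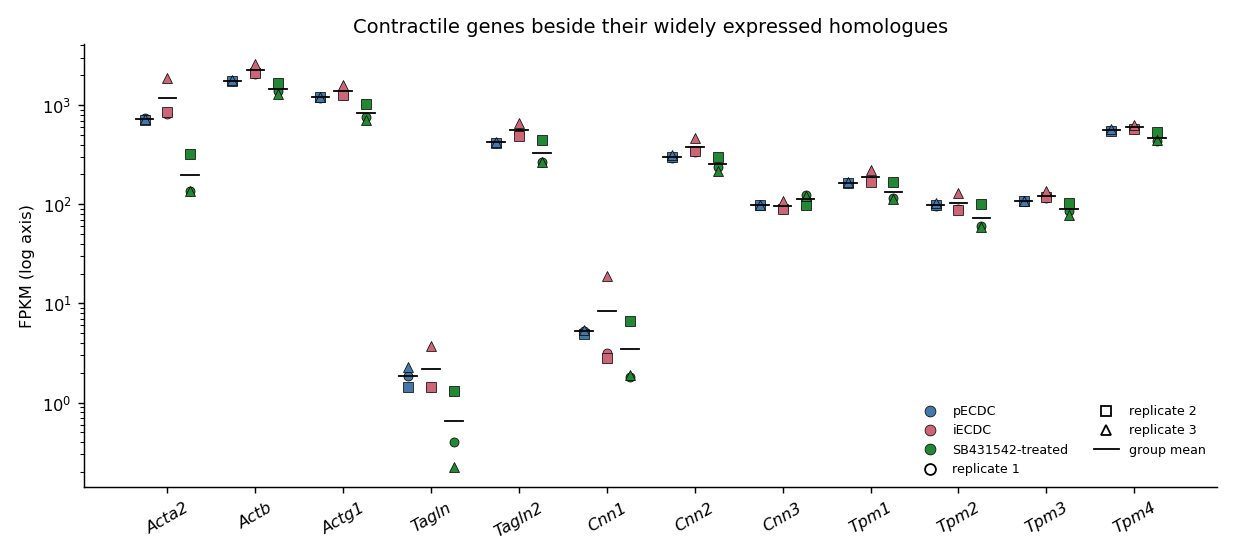
FPKM of contractile genes beside widely expressed homologues on a log axis, with a symbol for each replicate, a colour for each group and a bar at the group mean. Tagln lies at 3.73 FPKM or less while Tagln2 lies between 269 and 665.

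Other genes of the contractile apparatus were taken from a list of 26. Of 21 tested, 8 were lower in treated cells than in iECDCs and 2 were higher, with a median log2 fold change of -0.26. Among the lower were Actn1, α-actinin, an actin crosslinker (fell by 1.32 on the log2 scale, adjusted p = 0.00112), the LIM protein Csrp2 (1.09, adjusted p = 0.00247 by edgeR) and the LIM adaptors Pdlim5 (fell by 1.01) and Pdlim7 (fell by 0.97). Mylk, the kinase that phosphorylates the regulatory light chain, was at 0.123, 0.130 and 0.220 FPKM in iECDCs and 1.34, 0.460 and 1.22 in treated cells. All treated libraries lay above all iECDC libraries, with a log2 fold change of 2.70 (SE 0.44, adjusted p = 0.00441, edgeR). Between iECDCs and pECDCs 3 of 21 were higher and 2 lower. In treated cells against pECDCs 9 of 22 were lower and 3 higher. Leaving out the libraries that stood apart, 10 of 23 were lower and 5 higher in treated cells than in iECDCs, with a median of -0.08. In the same setting 4 of 22 were lower and 10 higher in iECDCs than in pECDCs. Treated cells against pECDCs then had 11 of 23 lower and 6 higher. The shares of all genes in that setting were 31.9% lower and 32.6% higher, 16.2% and 15.5%, and 32.3% and 31.7%, in the same order of comparisons. In either direction they were 64.5%, 31.7% and 64.1%. With all libraries they were 14.0% lower and 16.0% higher, 9.21% and 7.21%, and 17.0% and 17.9%.

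Regulators of contractile genes moved in both directions. Of 17 tested from a list of 20, 5 were lower and 6 higher in treated cells than in iECDCs. Srf was at 45.2, 44.8 and 58.7 FPKM in iECDCs and at 26.3, 38.7 and 24.6 in treated cells. No treated library reached the iECDC range, with a log2 fold change of -0.72 (SE 0.19, adjusted p = 0.0248, edgeR). Fhl2, a LIM cofactor, fell by 1.86 on the log2 scale (adjusted p = 0.00114) and Tgfb1i1 by 0.89 (adjusted p = 0.00279). Prrx1, a mesenchymal homeobox gene, had a log2 fold change of 0.87 (adjusted p = 0.00615), and Klf4, a repressor of contractile genes in smooth muscle, one of 0.62 (adjusted p = 0.00580, edgeR). In iECDCs against pECDCs Srf and Fhl2 were higher (log2 fold changes 0.45 and 0.34) and Klf4 and Prrx1 lower (-0.41 and -0.38). Counts over the list were 3 higher and 4 lower there, and 5 higher and 5 lower in treated cells against pECDCs. Without the libraries that stood apart 7 of 18 were lower and 8 higher in treated cells than in iECDCs. In that setting 5 of 18 were lower and 4 higher in iECDCs than in pECDCs. Treated cells against pECDCs then had 8 of 17 lower and 8 higher. The shares of all genes in that setting were 31.9% lower and 32.6% higher, 16.2% and 15.5%, and 32.3% and 31.7%, in the same order of comparisons. With all libraries they were 14.0% and 16.0%, 9.21% and 7.21%, and 17.0% and 17.9%.

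TGF-β response genes were read as a check of the treatment. Of 14 tested from a list of 15, 8 were lower in treated cells than in iECDCs and 1 was higher. Leaving out the libraries that stood apart, 9 were lower and 5 higher, so the list moved in both directions. Ctgf, a matricellular growth factor gene, was at 431, 442 and 459 FPKM in iECDCs and at 27.4, 70.9 and 30.7 in treated cells. Treated replicate 2, the library with the highest contractile genes, was again the highest of its group. The log2 fold changes were -4.29 for Pmepa1 (adjusted p = 0.000350), -3.36 for Ctgf (adjusted p = 0.00102) and -1.78 for Smad7 (adjusted p = 0.00176, edgeR). In treated replicate 2 Pmepa1 was at 5.27 FPKM against 2.54 and 2.32, and Smad7 at 14.0 against 8.16 and 7.49. In iECDCs against pECDCs 3 of 15 were higher and 4 lower, and in treated cells against pECDCs 8 of 14 were lower and 1 higher. Without the libraries that stood apart these counts were 5 higher and 5 lower of 15, and 9 lower and 3 higher of 14. Of all genes in that setting, 31.9% were lower and 32.6% higher in treated cells than in iECDCs. The shares were 16.2% and 15.5% in iECDCs against pECDCs, and 32.3% and 31.7% in treated cells against pECDCs. With all libraries they were 14.0% and 16.0%, 9.21% and 7.21%, and 17.0% and 17.9%, in the same order of comparisons.

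**Figure D5:**
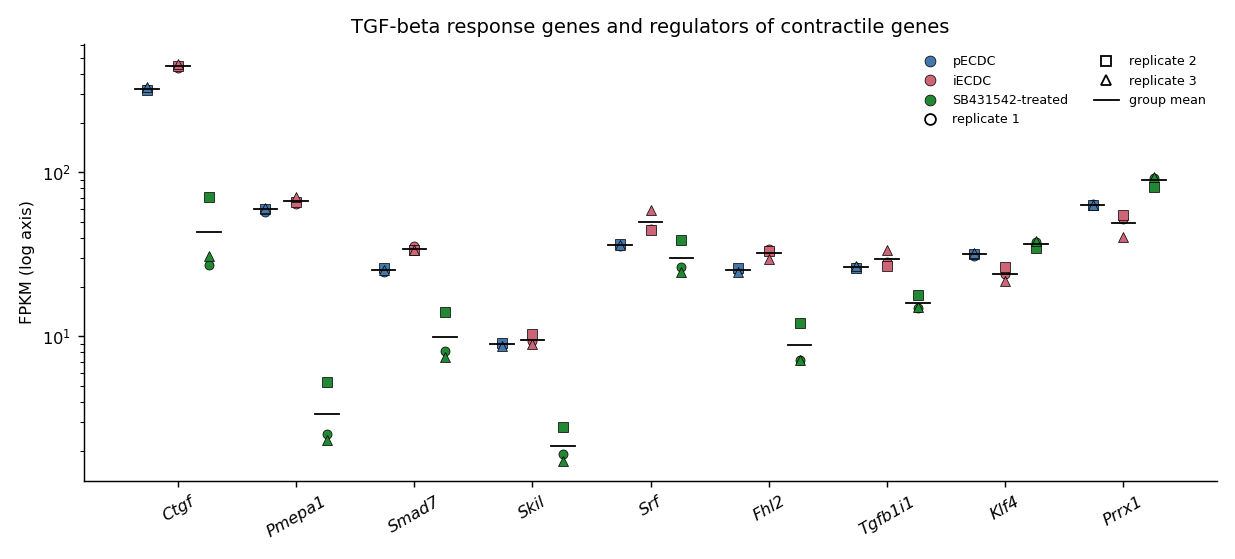
FPKM of TGF-β response genes and regulators of contractile genes on a log axis, with a symbol for each replicate, a colour for each group and a bar at the group mean. SB431542-treated replicate 2 lies above the other treated libraries for Ctgf, at 70.9 against 27.4 and 30.7 FPKM.

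Across the 9 libraries, log2 levels of Acta2 correlated most with those of Actn4 (Pearson's r 0.993), Actg1 (0.993), Rexo2 (0.991), Tmem97 (0.991) and Ext1 (0.989) among 5384 candidates. With the mean of the 10 genes the highest were Ppme1 (0.992), Esyt2 (0.989), Actg1 (0.982), Thap12 (0.981) and Dstn (0.980). Within the set, Acta2 and Myl9 had an r of 0.991 and Tpm1 and Tpm2 one of 0.975. After the group means were removed r was 0.988 and 0.999, whereas Cald1 with Myh11 had 0.0526. These are descriptions over 9 libraries that share groups and the libraries that stood apart.

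By the deposited coordinates the genes lie at chr19:34241090-34255336 (Acta2), chr9:45929619-45936058 (Tagln), chr9:22099216-22109630 (Cnn1), chr16:14194535-14291372 (Myh11) and chr2:156775420-156781658 (Myl9). The others lie at chr9:67022590-67049406 (Tpm1), chr4:43514711-43523765 (Tpm2), chr6:34598500-34775473 (Cald1), chr6:83512905-83536265 (Actg2) and chr1:135324807-135368065 (Lmod1). The coordinates were those of GRCm38 for 9 of the 10 genes, although the labels name mm9, and Acta2 differed at one end only.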

How the data were processed

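RNA-seq libraries were made from total RNA of 9 samples, and per the labels the reads were aligned with Bowtie2 2.0.6 and TopHat2 2.0.9 to mm9, although the gene coordinates in the table are those of GRCm38. The counting program and its strand setting are not given in the sources used here. The labels name a TruSeq kit and the methods an NEBNext kit or a BGI protocol. The deposited table holds raw counts per gene and FPKM values that the authors computed from them, and 15 columns of the authors' own comparisons and means were not used. Each value rests on 16568306 to 23951392 counts per library, and floors of 3 counts cover counting error only.

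Groups came from the labels. For each comparison the deposited counts went into edgeR 4.0.16 (R 4.3.3, TMM scaling, a filter of 10 counts and 15 in total, quasi-likelihood test on the libraries of the 2 groups compared, Benjamini-Hochberg adjustment over all tested genes, threshold 0.05). FPKM are shown as levels per length. The 95% intervals were built from the SE with 4 degrees of freedom, apart from the test. DESeq2 1.42.0, limma 3.58.1 on log2(FPKM + 1) and log2(FPKM + 0.1), other scalings, filters, a replicate block and leaving out libraries were alternatives. The test was checked on simulated data. The 10 genes and all lists were chosen with earlier results of these data known. All 10 are reported. Other genes were named from the lists, at most 4 a list and comparison by largest change among passing genes with a mean of at least 10 FPKM, plus genes whose role next to a member made them needed (Mylk, Srf, Klf4, Tmod1, Myh9, Myocd). One gene that this rule would name is not reported here. Promoter windows came from RefSeq. A planned comparison of protein sequences was replaced by shared transcript windows from GENCODE.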

Additional observations from a re-analysis of the deposited data

How the results depend on the processing

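The number of calls moved with the libraries that stood apart, while the single calls made with all libraries mostly held. Myh11 passed in 15 of 15 alternatives for iECDCs against pECDCs. For treated cells against iECDCs, Acta2, Myl9, Cald1 and Myh11 passed in 16 of 16 and Lmod1 in 14 of 16. For treated cells against pECDCs, Acta2, Myl9, Cald1 and Lmod1 passed in 15 of 15. In iECDCs against pECDCs the number of contractile genes higher was 1 and lower 0. Testing without the low-count filter gave 5 and 1, and leaving out each replicate gave 1 to 2 higher and 0 to 3 lower, the highest of both without iECDC replicate 3. Over these settings the log2 fold change of Cnn1 ran from -0.81 to 1.04 and that of Tpm2 from -0.15 to 0.14, lowest and below 0 without iECDC replicate 3. In treated cells against iECDCs the 5 lower became 8 with DESeq2, 10 with no filter, 8 with all 9 libraries in the fit and 9 leaving out both libraries that stood apart, and leaving out each replicate gave 4 to 9, the highest without treated replicate 2. Against pECDCs the 4 lower became 4 to 9, again the highest without treated replicate 2. The cause of the changes with DESeq2, the filter and the larger fit was not tested. Other scalings moved the median of all genes by less than 0.1.

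Over all genes the calls numbered 2258, 4061 and 4881 in the 3 comparisons. With all 9 libraries in the first they were 671, leaving out iECDC replicate 3 gave 4467, and leaving out each replicate gave 1036 to 4467. For treated cells against iECDCs leaving out replicates gave 1707 to 7001, and leaving out both gave 8951. Against pECDCs it gave 2453 to 9188.

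Same-numbered libraries did not deviate together (correlations -0.27 to 0.03 for treated cells with iECDCs, and within 0.07 of 0 for the others), so the numbers were not taken to pair them. With the replicate block the calls among the 10 genes were 1 higher and 0 lower, 0 and 5, and 0 and 4, and over all genes 1791, 3038 and 3886.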
